A study of Drosophila melanogaster with 3 samples.

Results

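Bone morphogenetic protein (BMP) signalling is represented here by 10 Drosophila genes, tok, tld, dpp, scw, sog, tkv, sax, put, Mad and Med, out of 13945 protein-coding genes. They were listed by name with earlier results of these data known, and tok was selected on its peak signal in these region lists. A gene's window is its Ensembl gene body plus 5 kb on each side. Counts of peaks at these genes are therefore descriptions, and no test was made on them. In all, 19 of the 6565 reproducible peaks of the series touched these windows.

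BMP ligands are secreted proteins that bind paired receptor kinases, whose activity leads to phosphorylation of a Smad protein that enters the nucleus with a partner Smad and regulates genes. In the early fly embryo the ligands Dpp and Scw pattern the dorsal side. Sog binds the ligands and shuttles them, and the secreted metalloprotease Tolloid (tld) cuts Sog and releases them. Tolkin (tok) is the neighbouring paralogue of tld and also a protease of this kind, known for roles later in development.

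The data are ChIP-seq of CG3281, a zinc finger protein, in Drosophila melanogaster. Sonicated chromatin, with a size range of 200 to 800 bp, came from whole embryos aged 0 to 24 h, male and female together. The embryos were from a transgenic line that stably carries CG3281 with GFP at its C terminus, and an anti-GFP antibody was used. All 3 samples are biological replicates of 1 group, so there is no comparison between conditions. The promoter that drives the transgene is not stated in the labels, and whether endogenous CG3281 was present is not given there either. Whole embryos of all ages were mixed, so binding in dorsal cells of the early embryo cannot be told apart from binding elsewhere or later. Region lists hold no expression values, so the tissue was not checked against marker genes.

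Each replicate has a list of 30000 regions, as does the pool of all replicates, and the authors' reproducible set holds the 6565 regions that passed their irreproducible discovery rate (IDR) step. The lists are ranked by the authors' signal value. Its scale was not the same in every list, with medians of 33.9 in replicate 1, 38.7 in replicate 2 and 43.7 in replicate 3. Signals were therefore divided by the median of their own list when replicates were set side by side. Read depth is unknown, because region lists give no read counts.

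A reproducible peak touched the window of 7 of the 10 genes, namely tok, dpp, sog, tkv, sax, Mad and Med. Among all protein-coding genes the share was 57.1% (exact 95% interval 56.2% to 57.9%, counting error over genes only). Long windows hold peaks more often: the share was 73.1% among genes with a window at least as long as the median of the members (20.1 kb), where 5 of 5 members had a peak. Among genes with a window of at most 20 kb it was 54.4%, and 2 of 5 members had one there. Windows with 3 or more reproducible peaks made up 16.4% of all genes and belonged to 4 members, tok, sog, tkv and Med. Summed over the windows, the density was 0.686 reproducible peaks per 10 kb for the members and 0.73 for all genes. With flanks of 5 kb, the members' count of 7 and their density of reproducible peaks thus stood near the background. With flanks of 0 kb, 5 members had a peak, beside 25.6% of all genes. These were tok, dpp, sog, tkv and Mad, the longest members, with gene bodies of 13.6 to 52.4 kb. The 25.6% covers genes of every length and was not matched to them. The pooled list held 3.57 regions per 10 kb for the members and 2.74 for all genes. This was not shared by all members: tkv alone held 40 regions in the longest window, at 6.41 per 10 kb. Med (6.28), sog (4.98) and Mad (4.24) also stood above 2.74. The remaining members stood below it, from dpp at 2.65 down to tld and scw with none. These differences were not tested.

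**Figure D1:**
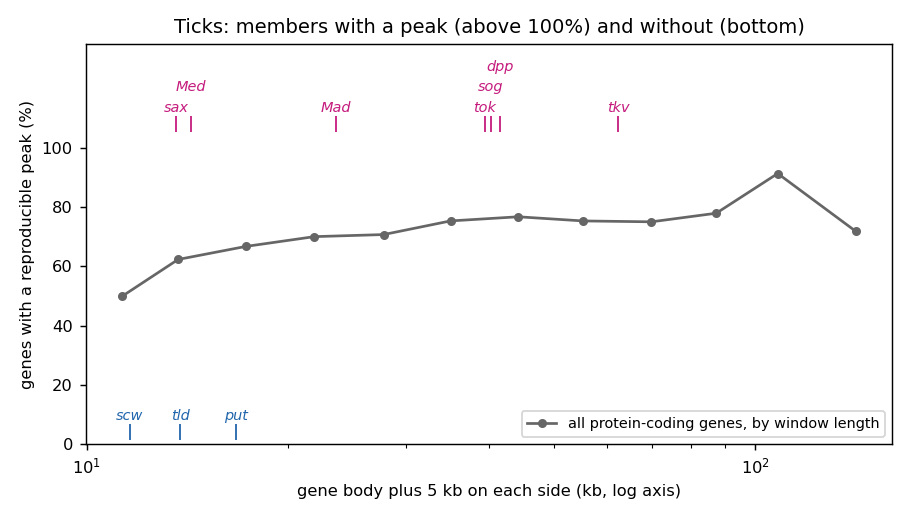
Share of protein-coding genes with a reproducible peak (y axis, %) by length of the gene body plus 5 kb on each side (x axis, kb, log axis); points are bins of at least 20 genes. Ticks mark the 10 BMP pathway genes by window length, with a peak at the top and without at the bottom: the 3 genes without, scw, tld and put, all have windows under 20 kb.

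A summit lay within 500 bp of a transcription start site (TSS) in 2 of the 10 genes, tok and tkv, against 24.8% of all genes, so this count was near the background. These 2 peaks stood at opposite ends of the set, with pooled ranks of 6 and 6513 among the 6565. The tkv peak is lost when only 1 start per gene is used, where the share of all genes was 22.2%.

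The peak at tok was by far the strongest of the 19. tok (FBgn0004885) lies on the plus strand of 3R from 24719697 to 24749125 (dm6, as all coordinates here). The peak spans 24719238 to 24720054, and its summit, at 24719628, is 69 bp upstream of the first TSS of tok. The other tok TSS starts 360 bp further on. The protein-coding gene CG13630 faces away from tok on the minus strand, with 332 bases between the starts of both genes. The summit was 264 bp upstream of the CG13630 TSS, so it was nearer to tok, and binding there cannot be assigned to either gene from these lists. The sequence between the genes is printed because it holds the summit. It gives the 300 bases before the tok start on the plus strand, chr3R:24719397-24719696, from the RefSeq copy of the dm6 genome, with a searched motif in capitals.
tok promoter: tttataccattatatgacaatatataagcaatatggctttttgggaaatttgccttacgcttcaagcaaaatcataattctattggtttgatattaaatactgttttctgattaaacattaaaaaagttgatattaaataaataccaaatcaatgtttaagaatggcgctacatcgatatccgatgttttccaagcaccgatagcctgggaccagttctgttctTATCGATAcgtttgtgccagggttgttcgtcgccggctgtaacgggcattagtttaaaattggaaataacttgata
The capitals mark TATCGATA, the word known as the DNA replication-related element and bound by Dref. The middle of this word was 3 bp before the summit.

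The replicates gave closely similar values at the tok promoter. The signal was 2064 in replicate 1, 2412 in replicate 2 and 2219 in replicate 3, with ranks of 6, 4 and 3. Relative to the list medians these are 60.8, 62.3 and 50.7, a mean of 57.9 ± 6.3 (SD, n = 3). Replicate 3 was the lowest on this scale although its rank was the highest. The 5 genes whose promoter peaks stood nearest in pooled rank were Ugalt, CG14100, CG30183, mRpL43 and Mi-2. They lay within 4 ranks, and CG30183 and mRpL43 share a peak. Their means over replicates ran from 55.7 ± 9.06 (SD, n = 3) at CG14100 to 63.5 ± 15.1 (SD, n = 3) at Mi-2. These genes were picked for their closeness in pooled rank, so the likeness of their values is a description.

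Both other peaks in the tok window were much weaker. One had its summit 2193 bp upstream of tok, 7 bp before the TSS of Polr2L, which encodes a shared small subunit of the RNA polymerases, and a pooled signal of 483.6 (rank 2004). Its signal was 182.5 in replicate 1 and 164.3 in replicate 2, at 5.38 and 4.24 times the list median. The list of replicate 3 held no region across this summit, which makes it the only one of the 19 peaks not spanned in every replicate. The sequence between the end of the preceding gene and the Polr2L start is printed because it carries the same word as the tok promoter (chr3R:24717431-24717510, plus strand).
Polr2L promoter: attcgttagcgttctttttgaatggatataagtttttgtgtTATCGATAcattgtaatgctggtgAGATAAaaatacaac
Capitals mark TATCGATA and a second word, AGATAA. The remaining peak lay in an intron of tok, 2690 bp downstream of the nearer TSS, and was weak: its pooled signal was 204.9 (rank 6276). In the replicates it reached 1.96, 1.71 and 1.58 times the list median, a mean of 1.75 ± 0.194 (SD, n = 3).

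The paralogue tld presented the opposite picture. tld (FBgn0003719) lies directly downstream of tok on the same strand, from 24749731 to 24753510, with 605 bases between the end of tok and its start. No region touched tld or its 5 kb flanks in any of the 5 lists, the reproducible set, the pooled list and the 3 replicate lists. The pooled list reaches down to a signal of 50.11, and the replicate lists to 19.58, 22.7 and 23. Whether tld had a lower signal than these, or was left out of the lists otherwise, cannot be told. No fold between tok and tld can be given, since tld has no value. Among all genes, 8.83% had no region in any list, and 20.4% none in the pooled list.

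The empty stretch was longer than tld itself. It ran from 24722972 to 24767703, or 44.7 kb, and so took in most of tok, tld, and the downstream genes asp, which encodes a microtubule-binding spindle protein, and AstA, a neuropeptide gene. Within the 29.4 kb body of tok, no list held a region further than 5 kb from its start. Regions returned past AstA: the nearest lay 14194 bp past the end of tld in replicate 1, and from 15261 to 15399 bp past it in the other lists.

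**Figure D2:**
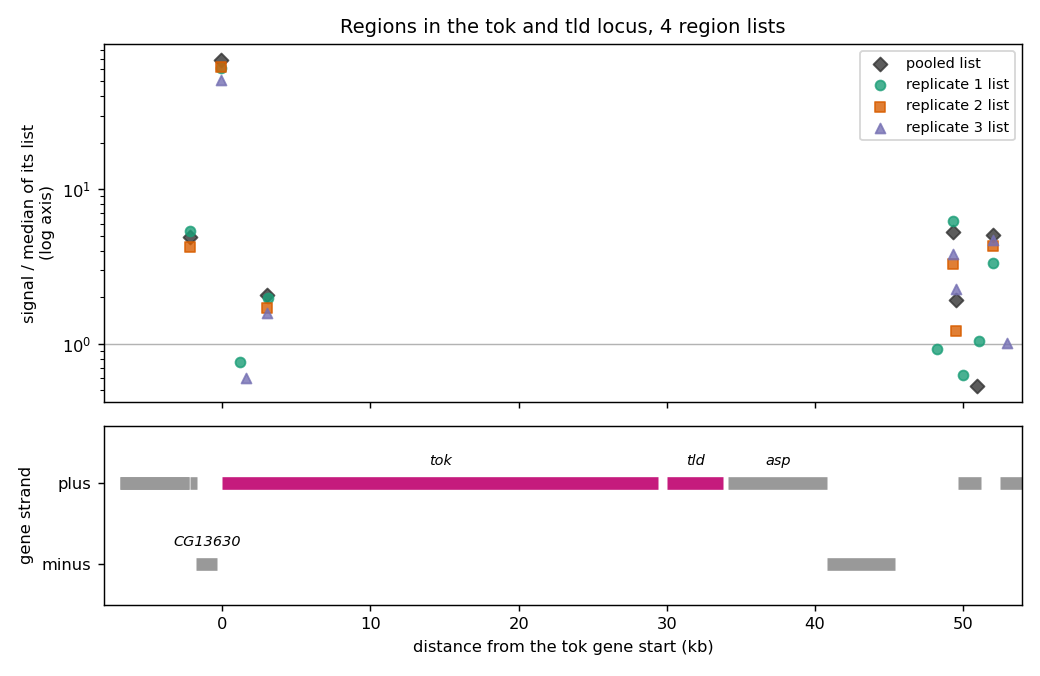
Upper panel: every region of the pooled list and the 3 replicate lists from 8 kb before tok to 20 kb past tld, by the summit's distance from the tok gene start (x axis, kb) and its signal relative to the median of its list (y axis, log axis). Lower panel: protein-coding genes by strand, with tok and tld coloured. The points at the tok start stand at 50.7 to 62.3 in the replicates, and none lies over tld.

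The ligand genes had weak peaks or none. dpp, the main BMP ligand gene of the fly, had 2 reproducible peaks in a window of 41.5 kb, a density of 0.482 per 10 kb. The stronger lay in an intron, 5276 bp downstream of the nearest TSS (chr2L:2433585-2433703). Its pooled signal was 263 (rank 4608), and it stood at 2.95, 1.56 and 2.24 times the list median in replicates 1, 2 and 3, a mean of 2.25 ± 0.692 (SD, n = 3). The other peak was 1731 bp upstream of the first dpp TSS, at a pooled signal of 238.2 (rank 5224) and 2.27, 1.46 and 2.08 times the list median. It was 409 bp from lncRNA:CR44912, a long non-coding RNA gene upstream of dpp. Replicate 2 was the lowest at both. A further 9 regions of the pooled list lay in the dpp window below the reproducible set, the strongest at 138.5, 311 bp downstream of a TSS.

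scw, the gene of the second early ligand, had no region in any list. It is a short gene (1.59 kb) within an intron of Lar, a receptor tyrosine phosphatase gene of 145 kb, and of the overlapping gene CG46244. The stretch without a region in all 5 lists was 105 kb long around scw and reached 68374 bp before the lower coordinate of the gene and 35188 bp past the upper. scw and tld, which act together in dorsal patterning, were the 2 members without any region, against the 8.83% of all genes given above.

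sog, the gene of the ligand-binding antagonist, carried the most peaks of the 10 genes, 5 in a window of 40.2 kb, or 1.25 per 10 kb. Among all genes, whose windows are mostly shorter (median 12.2 kb), 3.98% had 5 or more. Per 10 kb, Med stood higher than sog, at 2.09. The 3 strongest were in introns and the remaining 2 lay past the end of the gene, 670 and 3418 bp beyond it. The strongest, 3494 bp downstream of the nearer of the sog TSSs, had a pooled signal of 536.5 (rank 1704). It stood at 5.33, 3.78 and 4.86 times the list median in replicates 1, 2 and 3, a mean of 4.66 ± 0.79 (SD, n = 3). The next, 7018 bp downstream, had a pooled signal of 474 (rank 2061) and values of 4.93, 3.83 and 3.47, a mean of 4.08 ± 0.76 (SD, n = 3). These means differed by less than the spread between replicates. The remaining intron peak varied most relative to its mean: it was at 3.12 times the median in replicate 3 and 0.938 in replicate 2, where its rank was 16369. Both peaks past the gene end were weak, at 1.89, 1.98 and 1.86 times the median for the nearer one and 1.83, 1.91 and 1.46 for the other.

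No reproducible peak lay at either sog TSS. The strongest region below the set, at 178.5 in the pooled list (rank 7469), had its summit 46 bp upstream of a sog TSS. The 100 bp at the summits of the 2 strongest sog peaks are shown because they carried the largest signals away from any promoter in the gene, on the plus strand, which is the strand opposite to sog (chrX:15622996-15623095 and chrX:15619472-15619571).
sog intron, strongest peak: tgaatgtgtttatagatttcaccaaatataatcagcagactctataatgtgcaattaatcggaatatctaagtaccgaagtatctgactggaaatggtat
sog intron, second peak: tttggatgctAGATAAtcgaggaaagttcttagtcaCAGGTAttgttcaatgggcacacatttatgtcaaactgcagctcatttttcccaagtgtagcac
Capitals mark AGATAA and CAGGTA, a word recognised by the early activator Zelda. The first of these sequences held none of the 10 words searched.

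The receptor genes differed in how many weak regions they held. tkv, a type I receptor gene and the longest of the members at 52.4 kb, had 40 regions of the pooled list in its window, 6.41 per 10 kb, against 2.74 over all genes. Only 3 of these were in the reproducible set, a density of 0.481 per 10 kb. The strongest was an intron peak at a pooled signal of 304.6 (rank 3811), 3655 bp downstream of a tkv TSS, with 2.43, 2.8 and 3.06 times the list median in replicates 1, 2 and 3 (mean 2.76 ± 0.317, SD, n = 3). Another, at 216.3, had its summit 33 bp from the gene tRNA:Asp-GTC-2-1 inside the tkv intron, and 236 bp from tRNA:Asp-GTC-1-1. The weakest, at 199.6, lay 97 bp upstream of an internal tkv TSS and within the pseudogene CR14033. In the replicates it was at 1.66, 0.828 and 2.44 times the list median, so replicate 2 was below the median of its list. The reproducible set ends at a pooled signal of 198.3. Just outside it was another tkv region, at 196.8 (rank 6632), 47 bp upstream of a different tkv TSS.

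sax, the other type I receptor gene used by BMPs here, had 1 reproducible peak, at a pooled signal of 672.4 (rank 1220). It stood at 4.95, 7.26 and 4.91 times the list median, a mean of 5.71 ± 1.35 (SD, n = 3), with replicate 2 the highest. This peak was not at sax: the summit was 2330 bp past the end of the gene, with TTLL12 in between. The summit lay between the starts of TTLL12 and puml, which face away from each other. It was 369 bp upstream of the TTLL12 TSS and 107 bp upstream of the nearest puml TSS. put, the type II receptor gene, had no reproducible peak. Its pooled list held 3 regions, the strongest at 127.9 (rank 11048), 764 bp downstream of the TSS. The strongest region per replicate at put was 1.7, 1.96 and 0.992 times the list median. The best region of replicate 3 was thus just below the median of its list.

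Among the Smad genes, no reproducible summit lay within 500 bp of a TSS of Mad or Med. Mad, the gene of the receptor-activated Smad, had an intron peak 651 bp upstream of its internal TSS (chr2L:3153274-3153537), at a pooled signal of 496.6 (rank 1929). It was at 5.47, 3.3 and 4.11 times the list median in replicates 1, 2 and 3, a mean of 4.3 ± 1.1 (SD, n = 3). A weaker peak, at 233.6 (rank 5347), lay 884 bp downstream of the other Mad TSS, with 2.77, 2.82 and 1.64 times the median. The 100 bp at the stronger summit are shown as the most AT-rich of the 19 (chr2L:3153354-3153453, plus strand, opposite to Mad).
Mad intron: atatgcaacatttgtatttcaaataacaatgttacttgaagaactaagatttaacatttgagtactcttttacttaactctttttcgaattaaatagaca
This stretch held 76% A and T and none of the words searched.

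Med, the gene of the partner Smad, had the second strongest peak of the 10 genes. The summit lay 791 bp past the end of Med, between Mnat9 and CG1792, which face away from each other: it was 6 bp upstream of the Mnat9 TSS and 137 bp upstream of the CG1792 TSS (chr3R:31616011-31616350). Its pooled signal was 1774 (rank 218). The replicates gave signals of 506.6, 642.8 and 635.3 and ranks of 234, 189 and 237. Relative to the list medians they were at 14.9, 16.6 and 14.5, a mean of 15.3 ± 1.1 (SD, n = 3). The whole stretch between these genes is printed (chr3R:31616161-31616302, plus strand), since it holds the summit, which lies outside Med. Binding there cannot be assigned to a gene from these lists.
Mnat9 and CG1792 promoter: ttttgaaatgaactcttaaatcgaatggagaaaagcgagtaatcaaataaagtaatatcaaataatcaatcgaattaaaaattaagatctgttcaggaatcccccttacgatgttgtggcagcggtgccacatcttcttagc
It held none of the words searched. Both other peaks in the Med window, upstream of its TSS, lay in introns of CycG, a cyclin gene that overlaps Med on the other strand. They were at pooled signals of 316.3 and 239.5, and the latter was 87 bp upstream of a CycG TSS. In the replicates the former was at 2.94, 2.72 and 2.73 times the list median, a mean of 2.8 ± 0.125 (SD, n = 3).

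**Figure D3:**
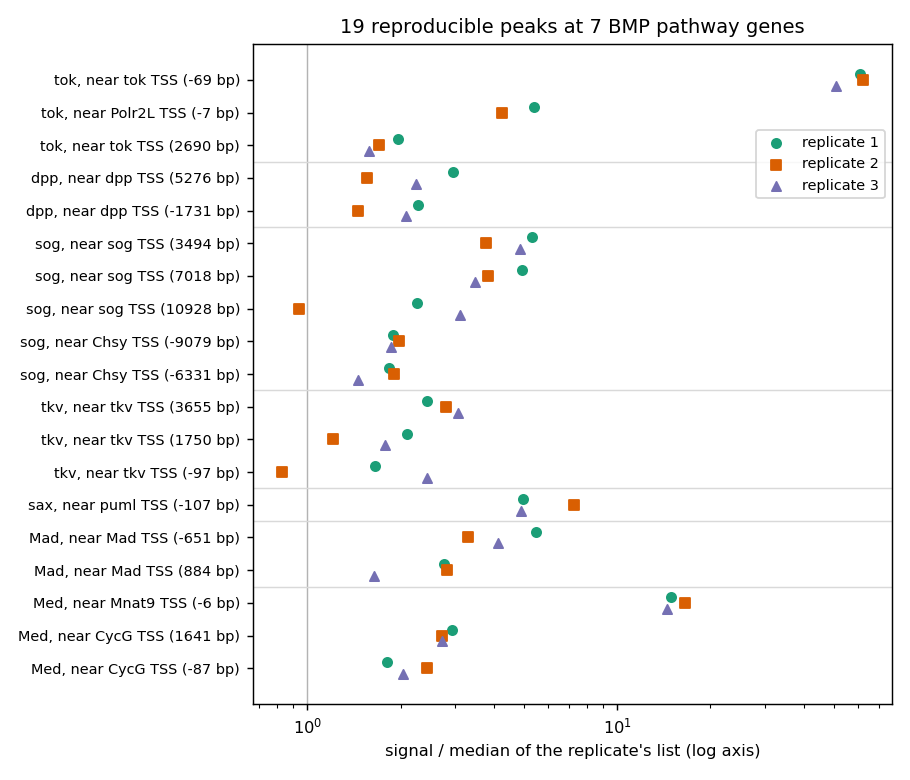
Signal in each replicate relative to the median of that replicate's list (x axis, log axis) for the 19 reproducible peaks at 7 genes (y axis, with the nearest protein-coding TSS and the distance of the summit to it in bp). The tok promoter peak stands at 50.7 to 62.3 and the Mnat9 peak in the Med window at 14.5 to 16.6, and all others are at 7.26 or lower. The Polr2L peak has no point for replicate 3.

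When each peak was given only to the gene with the nearest TSS, 5 members kept a peak, tok, dpp, sog, tkv and Mad, against 26.2% of all genes. These are the longest members, and the 26.2% was not matched for gene length. For 12 of the 19 peaks the nearest protein-coding TSS belonged to the member itself. Most of the 19 peaks were of modest signal and lay away from starts. Their median pooled signal was 263 against 339.7 over all reproducible peaks, and 12 of them were below that median. Their median distance to the nearest TSS was 1731 bp against 664 bp. By annotation, 11 summits were in introns, 7 were intergenic, and 1 was in the pseudogene at tkv. Intergenic here does not mean far from a start. These summits include those 69, 7, 107 and 6 bp upstream of the tok, Polr2L, puml and Mnat9 TSSs.

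A spanning region was present in all 3 replicate lists for 18 of the 19 peaks, against 95.4% of all reproducible peaks. Among the strongest 6565 regions of each list this held for 8 of the 19, against 63.8% of all peaks. The 8 were the tok promoter peak, the 2 strongest sog peaks, the strongest tkv and Mad peaks, the peak at puml in the sax window, and 2 peaks in the Med window, those at Mnat9 and in the CycG intron further from Med.

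**Figure D4:**
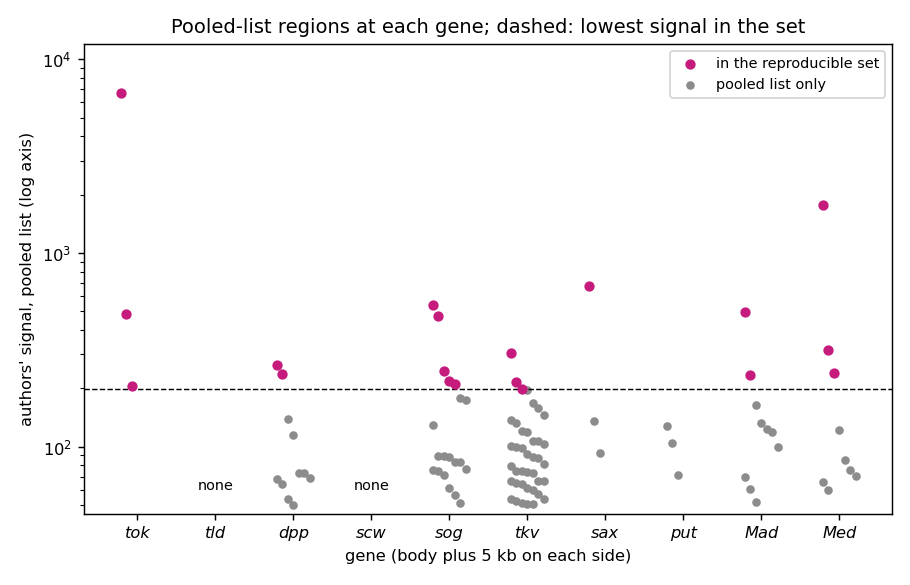
All regions of the pooled list in the window of each gene, by the authors' signal (y axis, log axis); coloured points belong to the reproducible set, grey points do not, and the dashed line is the lowest signal in the set, 198.3. All 3 tok regions are in the set, tkv has 40 regions of which 3 are in it, and tld and scw have none.

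Sequence at the summits was searched for 10 short words on both strands, in the 100 bp around each summit. The word TATCGATA was in the windows of both upstream tok peaks, at the tok and Polr2L promoters, and in 1.2% of all reproducible peaks. The Polr2L window also held GGTCACACT, part of the element bound by M1BP (0.655% of all peaks), and AGATAA (7.95%). CAGGTA was at the upstream dpp peak and the second sog peak (1.8% of all peaks), and AGATAA also at the peaks of rank 2061 and 4972 in sog. GAGAG, the word of the GAGA factor, was at the tkv peak beside the tRNA gene and at the weaker Mad peak (9.52% of all peaks). GTCTAGAC, the palindromic Smad word, was at none of the 19 and at 0.0152% of all peaks. GGCGCC, which the repressor Brinker can bind, was at none of the 19 and at 1.45% of all peaks. None of the 19 held CACGTG (0.792% of all peaks), ACACAC (6.35%) or CAGCTG (4.36%). No matches shared bases in the sequences printed here. A match is a description of the letters and does not show a site in use.

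Base composition was near that of all peaks. The median A and T content in the 100 bp at the summit was 66% for the 19 peaks and 67% for all reproducible peaks. In the 100 bp centred 500 bp away it was 58% and 57%. The content was higher at the summit than in this flank for 13 of the 19 peaks and for 71.5% of all peaks. The tok promoter peak was not among these 13, with 50% in the 100 bp at the summit and 58% in the flank. Nor were some other peaks, among them the weaker Mad peak (44% and 60%) and the second sog peak (60% and 76%).

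Other genes of the pathway were counted from lists that were also drawn up with earlier results known. Of 14 other genes of ligands and of proteins that shape ligand spread, 9 had a reproducible peak in the window (64.3%, beside 57.1% of all genes) and 4 a summit within 500 bp of a TSS (28.6%, beside 24.8%). The latter were magu, a secreted regulator of Dpp spread, at a pooled signal of 654.7, the glypican genes dlp at 419.6 and dally at 226.5, and cv-2, a secreted BMP-binding protein, at 358.3. Stronger peaks lay in introns of dlp (762.5), dally (547.5) and cv-2 (548.6). The strongest peak in a window without one at the gene's own start was at gbb, a BMP ligand gene, at 2937, but its summit was 103 bp from the TSS of the neighbour eIF6. It was followed by a peak of 904.2 in the window of cv, which encodes a Twisted gastrulation family protein, 1343 bp upstream of CG3149.

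Both other receptor genes had peaks in the window. wit, a type II receptor gene, had a summit 24 bp upstream of a TSS, at only 200.4. Its strongest peak, at 627 (rank 1364), lay in an intron of wit. For babo, the Activin-type receptor gene, the strongest peak in the window, at 1076, was 151 bp upstream of CG8229. All 9 other transducers and nuclear partners had a peak in the window (median window 21.7 kb), and 3 had a summit at a TSS (33.3%, beside 24.8% of all genes). The share with a peak in the window was 57.1% of all genes and 73.1% of those with long windows. The 3 with a summit at a TSS were shn, a zinc finger partner of the Smads, at 1667, nej, the CBP acetyltransferase gene, at 516.2, and lolal at 437.6. The strongest peak in the nej window, at 1924, was 664 bp upstream of a nej TSS. That in the shn window, at 1752, was 310 bp upstream of CG7737. brk, the repressor of Dpp targets, had a peak of 1474 at 739 bp upstream of its TSS, in an intron of CG1677 and of lncRNA:CR44357. Dad, the inhibitory Smad gene, had an intron peak of 1353.

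Of 15 genes known as targets of the pathway, 7 had a peak in the window (46.7%, beside 57.1% of all genes), and 2 had a summit at a TSS (13.3%, beside 24.8%). These were Ance, an early dorsal target, at 381.6 and ush, a GATA cofactor gene, at 337.7. The strongest peak in the Ance window, at 473.3, was 58 bp upstream of Smg5. The ush window held 14 reproducible peaks in all, and the strongest, in an intron of ush 1369 bp upstream of cbt, reached 6049 (rank 9). For 6 of the 15, among them zen, pnr and C15, the pooled list held no region in the window, as for tld and scw and for 20.4% of all genes. The strongest peaks in windows of targets with none at their own start were near neighbours: that in the bam window, at 2492, was 1 bp upstream of RpS27, and that in the tup window, at 1136, was 120 bp upstream of CG10602. The lists differ in window length and these shares were not tested against each other.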

How the data were processed

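The deposited files are region lists on dm6 from 3 replicates. Per the deposited file notes, each replicate's list came from its alignments and 1 control, the pooled list from all replicates, and the reproducible set from these lists. Which aligner, which caller and what IDR cutoff were used is not given in the sources used here. Regions are ranked in each list by the deposited signal value. The deposited −log10 q-value was not used for selection, and the deposited offset gives the summit. Control libraries and the dm3 lists were not analysed here. Depth is unknown, and intervals cover counting error only.

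Gene models came from Ensembl release 115 and sequence from RefSeq, and all regions end within the RefSeq arms. A peak was assigned to a gene when it touched the gene body plus 5 kb. In a replicate, a peak's value is that of the strongest region spanning the pooled summit. Leaving out a replicate kept the peaks matched, at 50% of their length, among the strongest 6565 regions of both others. The counting code was tested on simulated data. The members and lists were chosen with earlier results of these data known, so no p-value is given. Named genes are the members, genes at their peaks, up to 4 promoter-bound and 2 further genes per list, and the 5 nearest to tok in rank; some further genes are neighbours named as landmarks or examples chosen after their values were seen. 1 name, lack, was matched to Smurf. A list of further proteases was dropped because the reference does not annotate the family, and proteins were not compared. Python 3.11.15, numpy 2.4.6, scipy 1.17.1, pandas 2.3.3, pysam 0.24.0 and matplotlib 3.10.9 were used.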

Additional observations from a re-analysis of the deposited data

How the results depend on the processing

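The count of 7 members with a peak in the window ran from 5 to 8 over flanks of 0, 2 and 10 kb, summits in place of intervals, nearest-TSS assignment, the stronger 3282 peaks, all pooled regions and RefSeq models, and was 5 to 6 with each replicate left out. The settings that leave out a replicate also use a stricter rule, a match among the strongest regions of the lists kept. An alternative chosen after seeing the data applied that rule with all 3 replicates: 4 members remained, tok, sog, tkv and Med, beside 44.5% of all genes. The rule with all 3 replicates thus removed dpp, sax and Mad. Of these, sax came back only without replicate 1, dpp only without replicate 2, and Mad without replicate 2 or replicate 3. Which members remained thus depended on the replicate left out, though each such setting also asks for a match in fewer lists. tok had a peak, and tld and scw none, under each of these settings. The background of 57.1% moved to 25.6% at 0 kb, 43.2% at 2 kb, 70.5% at 10 kb, 26.2% by nearest TSS, 40.8% with the stronger peaks and 79.6% with all pooled regions; with a replicate left out it was 47.5% to 48.2%. In long windows only, also chosen after seeing the data, it was 73.1%. The 2 members with a summit at a TSS became 1, tok, with 1 start per gene (22.2% of all genes, from 24.8%), with the stronger peaks (15.2%), under the stricter rule with all replicates (16.5%) and with each replicate left out (1 in each case, beside 18.1% to 18.7%). At 1000 bp they were 3, beside 28.6%. The tok mean of 57.9 list medians became 19 when divided by the median of the strongest regions, which is higher by construction, and was 55.8 to 61.5 with a replicate left out. The 18 peaks spanned in all replicates became 8 among the strongest regions only and 16 at 50% cover. Values for tld alone and for tok over tld could not be computed, since tld had no region. Neither depth nor the filters of the lists are known, so a missing region means only that the list held none there.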
